A study of Mus musculus with 8 samples.

Results

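Chemokine receptors are the G protein-coupled receptors by which T cells follow gradients of chemokines out of the blood and into lymph nodes, gut, skin or inflamed tissue. On ligand binding they signal through inhibitory G proteins to Rac, Rap and phosphoinositide 3-kinase, and they are then switched off by receptor kinases, arrestins and RGS proteins. The receptors a CD4+ T cell carries differ with its state: CCR4 and CCR8 are typical of regulatory T cells (Tregs) and type 2 cells, CCR6 of type 17 cells, CXCR3 and CXCR6 of type 1 cells, CXCR5 of follicular helper cells and CCR9 of cells that home to the small intestine.

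The 9 receptor genes described here, Ccr2, Ccr4, Ccr6, Ccr8, Ccr9, Cxcr3, Cxcr4, Cxcr5 and Cxcr6, were taken by gene symbol, and all 9 were among the 28239 symbols of the count table. RNA was counted in 8 libraries of CD4+ T cells, 4 labelled Alox15-/- and 4 labelled WT, both on a C57BL/6 background. Naïve cells isolated by negative selection on magnetic beads, a step meant to remove all other cells, from the spleens of mice of either genotype, for which the methods give an age of 10 to 12 weeks and both sexes, had been stimulated by beads carrying antibodies to CD3 and CD28, with TGF-β at 5 ng/ml and IL-2 at 100 U/ml, and were taken on day 2. The series describes 4 mice of each genotype. Alox15 encodes 15-lipoxygenase, an enzyme that oxygenates polyunsaturated fatty acids, and the comparison asks how the RNA of developing Tregs differs when it is deleted in the germline, and so in every cell of the donor mouse. The T cell marker Cd3e was at 249 to 296 CPM (counts scaled to a common library size) in the 8 libraries. Cd4 was at 210 to 297 CPM in the libraries labelled Alox15-/- and at 328 to 352 CPM in those labelled WT, without overlap (edgeR adjusted p = 0.357), and Cd3g was at 152 to 170 against 111 to 140 CPM, the other way round and also without overlap (edgeR adjusted p = 0.296). Foxp3, the transcription factor that defines Tregs, was at 71.7 to 195 CPM.

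The total count per library lay between 3723151 and 9538962, and the 9 receptors together took between 0.00682% and 0.00897% of it. The targeted gene was higher, not lower, in the libraries labelled Alox15-/-. Alox15 was at 63.7 to 70.5 CPM in these and at 1.88 to 9.02 CPM in the libraries labelled WT. Which exons are deleted is not given in the sources used here, so exchanged labels and reads from outside the deleted part cannot be told apart, and Alox15 does not check the labels. Each direction below is therefore that of libraries labelled Alox15-/- relative to libraries labelled WT. Summed levels of marker genes of other cells also differed: markers of erythroid cells were at 920 to 3522 CPM in the libraries labelled Alox15-/- against 72.3 to 140 CPM in those labelled WT, markers of mast cells and basophils at 141 to 358 against 57.9 to 82.9 CPM, markers of eosinophils at 21.4 to 74.1 against 1.25 to 6.93 CPM, and markers of myeloid cells at 117 to 496 against 50.2 to 62.3 CPM. For each of these 4 lists the groups did not overlap (p = 0.0286 by exact permutation, two-sided, which is the lowest value that 4 libraries against 4 can give). Summed markers of T cells, of Tregs, of B cells and of dendritic cells overlapped between the groups, as did those of CD8 T cells (12.1 to 21.9 against 21.5 to 31.8 CPM). The sum for NK and γδ T cells overlapped as well (245 to 410 against 234 to 269 CPM). Of its 7 tested genes 4 were called higher by edgeR, beside 1.24% of all genes tested called in either direction. The sum includes Il2rb, at 142 to 196 against 166 to 212 CPM. The 4 called genes were the γδ T cell receptor genes Trdc (44.6 to 75.3 against 12.01 to 22.5 CPM), Tcrg-C1, Tcrg-C2 and Tcrg-C4. Tcrg-C1 (5.90 to 13.6 against 1.68 to 2.35 CPM) reached the filter through the libraries labelled Alox15-/-, where it was high. The count is therefore no measure of the list. The mean of log2(CPM + 1) over the list differed by 0.79 (exact permutation, p = 0.0286). Within the B cell list 1 of 3 tested genes was called, Ms4a1, lower by 2.64 on the log2 scale (edgeR adjusted p = 0.00413). Ms4a1 reached the filter through the libraries labelled WT, where it was high, so that this count is no measure of the list. In bulk RNA, fewer cells of a type and less RNA per cell cannot be told apart.

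Of the 9 genes, 6 lie on chromosome 9 (positions from GENCODE, build GRCm38), and Ccr9, Cxcr6 and Ccr2 stand in that order within 435 kb. Ccr9 (ENSMUSG00000029530.16) spans chr9:123678439-123784330 on the plus strand, Cxcr6 (ENSMUSG00000048521.8) chr9:123806475-123811760 on the plus strand and Ccr2 (ENSMUSG00000049103.14) chr9:124101950-124113557 on the plus strand. Ccr8 (ENSMUSG00000042262.5; chr9:120092114-120094906, plus strand), Ccr4 (ENSMUSG00000047898.7; chr9:114490316-114504916, minus strand) and Cxcr5 (ENSMUSG00000047880.15; chr9:44511787-44561877, minus strand) are farther off on the same chromosome. Ccr6 (ENSMUSG00000040899.14) is at chr17:8236043-8257141 on the plus strand, Cxcr4 (ENSMUSG00000045382.6) at chr1:128588199-128592293 on the minus strand and Cxcr3 (ENSMUSG00000050232.6) at chrX:101731535-101734269 on the minus strand. Cxcr6 lies within the gene Fyco1 on the opposite strand, and their exons share 0 bases. Cxcr5 overlaps Bcl9l, and Ccr9 overlaps Slc6a20a, Lztfl1 and other genes, on the opposite strand. Ccr9 also overlaps Gm17200 and Gm17020 on its own strand, with which it may share reads under any strand setting. How reads were assigned by strand is not given in the sources used here, so reads of Ccr9 and Cxcr5 may be shared with these partners.

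Because Cxcr6 and Ccr6 had the smallest p-values of the receptors in each direction, the 250 bases before their RefSeq start (GRCm38.p6) are shown, read 5′ to 3′ in the direction of the gene. Capitals mark a match, on either strand, to GGTGTGA, the core bound by T-box factors, to AGATAA, which the factor Gata3 and its relatives bind, to AGGTCA, bound by the ROR receptors, or to TGTTTAC, bound by forkhead factors. These motifs do not overlap each other in the windows shown. For Ccr6 this is the first of 2 RefSeq starts, chr17:8235793-8236042 on the plus strand, and for Cxcr6 it is chr9:123806227-123806476 on the plus strand.
Ccr6: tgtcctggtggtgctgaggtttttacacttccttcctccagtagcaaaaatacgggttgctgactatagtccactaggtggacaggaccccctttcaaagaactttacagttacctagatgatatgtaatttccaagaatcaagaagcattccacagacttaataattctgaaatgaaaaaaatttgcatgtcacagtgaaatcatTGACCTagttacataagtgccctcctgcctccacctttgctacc
Cxcr6: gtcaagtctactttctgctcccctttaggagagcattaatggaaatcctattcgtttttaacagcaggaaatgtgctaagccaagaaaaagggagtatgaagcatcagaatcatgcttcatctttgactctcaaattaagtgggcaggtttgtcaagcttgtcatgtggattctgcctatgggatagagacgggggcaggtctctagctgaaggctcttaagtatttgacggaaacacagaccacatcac
The Ccr6 window holds 1 match, to the ROR core on the minus strand at position -44 from the start, and the Cxcr6 window holds none of the 4. Among 32851 RefSeq promoter windows of the same length, 14.0% hold the ROR core, 9.99% the GATA core, 3.33% the T-box core and 3.17% the forkhead core. RefSeq windows were found for 8 of the 9 genes, Cxcr5 being the exception. The GATA core also occurs before Ccr2 (at -97), Ccr8 (at -239) and the second start of Ccr6 (at -70), and the windows of Ccr4, Ccr9, Cxcr3 and Cxcr4 hold none of the 4 cores. A match is a stretch of letters and not a measured binding site.

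Of the 8 receptors that could be tested, 0 passed the adjusted threshold. Summed over the 9 genes, the level was 80.1 ± 8.72 CPM (SD, n = 4) for Alox15-/- labels and 79.1 ± 8.15 CPM (SD, n = 4) for WT labels. A gene was tested where at least 4 libraries reached 2 CPM, the filter stated in the methods, which Ccr2 did not pass. The test was the quasi-likelihood test of edgeR over 12700 genes, with Benjamini–Hochberg adjustment and a threshold of 0.05, by which 158 genes (1.24%) were called. At an unadjusted p under 0.05 there was 1 of the 8 receptors, Cxcr6, where 7.84% of all genes tested were under that value. The groups did not overlap for 0 of the 8, against 5.25% of all genes tested. The log2 fold change was above 0 for 4 receptors and below 0 for 4, with a median of 0.084, and the median over all genes was -0.0075.

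**Figure D1:**
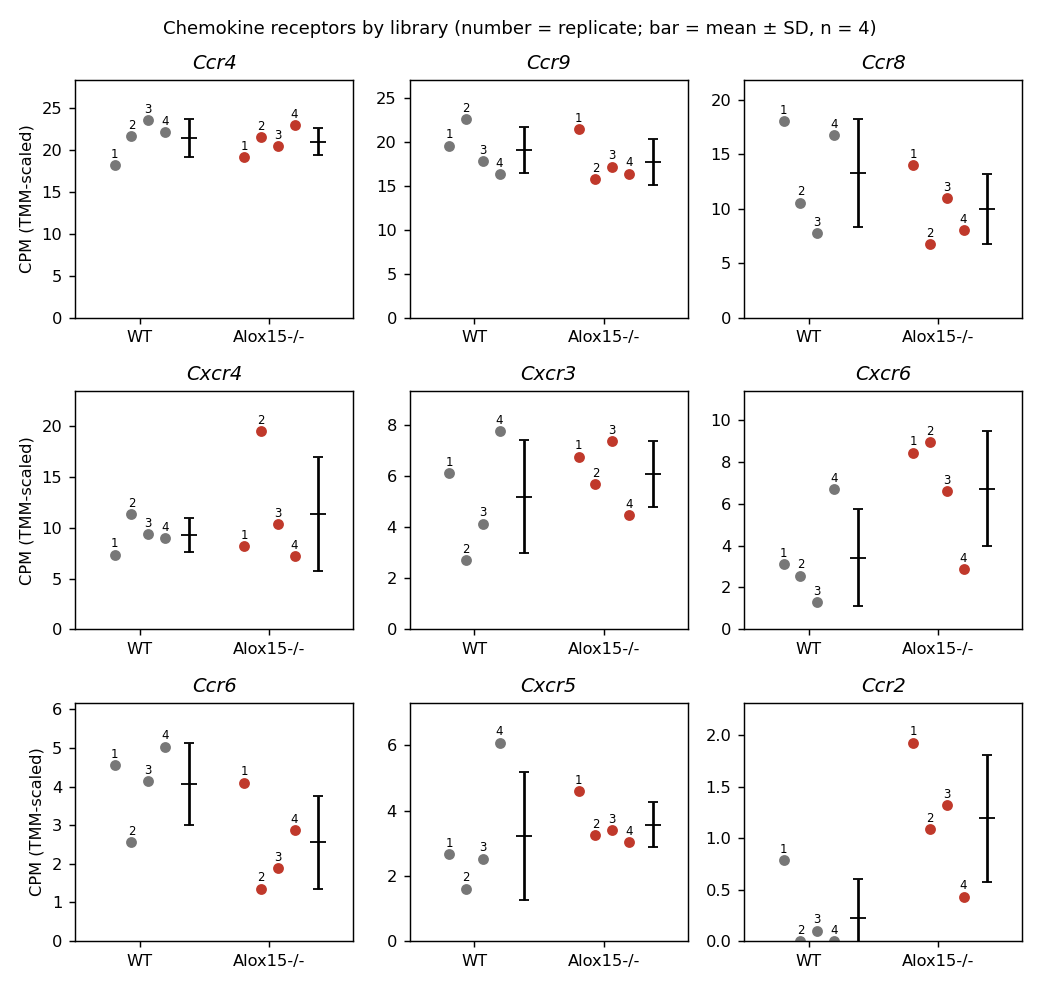
Level of each receptor in CPM, from 0 on each vertical axis, in the 4 libraries labelled WT (gray) and the 4 labelled Alox15-/- (red), numbered by replicate, with the mean ± SD of each group as a bar. The groups overlap in every panel, and the spread within a group is widest, relative to its mean, for Ccr2, Cxcr6 and Cxcr5 in the libraries labelled WT.

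Ccr4, the receptor for CCL17 and CCL22, was the highest of the 9 on the CPM scale in both groups and the least variable. It was at 19.1, 21.4, 20.4 and 22.9 CPM in replicates 1 to 4 labelled Alox15-/- and at 18.2, 21.6, 23.5 and 22.0 CPM in those labelled WT. The values of the groups interleave. The log2 fold change was -0.025 with a 95% interval of -0.32 to 0.27 (edgeR adjusted p = 0.984), which runs from 0.801-fold to 1.21-fold. The sign of a value this near 0 turned with upper quartile scaling (0.0050).

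Ccr8, whose ligand is CCL1 and which marks activated Tregs, was lower on average in the libraries labelled Alox15-/-, by less than its spread. It was at 14.0, 6.79, 10.97 and 8.06 CPM in those libraries and at 18.0, 10.6, 7.77 and 16.8 CPM in those labelled WT. Replicates 1 and 4 labelled WT were the highest of the 8, and replicate 3 labelled WT was the second lowest. On the log2 scale the fold change was -0.40, with a 95% interval of -0.99 to 0.20 (edgeR adjusted p = 0.795), and it ran from -0.60 without replicate 3 labelled WT to -0.20 without replicate 1 labelled WT.

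Ccr9, the receptor for CCL25 of thymus and small intestine, was at 21.5, 15.7, 17.2 and 16.4 CPM in the libraries labelled Alox15-/- and at 19.6, 22.6, 17.9 and 16.4 CPM in those labelled WT. The values of the groups interleave here too, with the highest library labelled WT and the lowest labelled Alox15-/-. Its log2 fold change was -0.11 with a 95% interval of -0.45 to 0.22 (edgeR adjusted p = 0.912), and it ran from -0.21 without replicate 1 labelled Alox15-/- to -0.025 without replicate 2 labelled WT.

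Cxcr4, the receptor for CXCL12 that holds lymphocytes in bone marrow and lymphoid tissue, was at 8.21, 19.5, 10.4 and 7.19 CPM in the libraries labelled Alox15-/- and at 7.37, 11.4, 9.38 and 9.02 CPM in those labelled WT. Replicate 2 labelled Alox15-/- alone was above all libraries labelled WT, and it was also the library with the highest sums of eosinophil (74.1 CPM), myeloid (496 CPM) and mast cell (358 CPM, with basophil genes) markers, whose part in this value was not tested. With all libraries the log2 fold change was 0.25, with a 95% interval of -0.34 to 0.83 (edgeR adjusted p = 0.876), and without that library it was -0.12.

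The receptors linked to type 1 cells were Cxcr3, which binds CXCL9 and CXCL10, and Cxcr6, which binds CXCL16. Cxcr3 was at 6.76, 5.70, 7.38 and 4.46 CPM in the libraries labelled Alox15-/- and at 6.12, 2.72, 4.14 and 7.77 CPM in those labelled WT. Both the highest and the lowest library were labelled WT. For Cxcr3 the log2 fold change was 0.25 with a 95% interval of -0.40 to 0.90 (edgeR adjusted p = 0.891), and it ran from 0.042 without replicate 2 labelled WT to 0.48 without replicate 4 labelled WT.

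Cxcr6 had the largest fold of the 8. It was at 8.45, 8.96, 6.62 and 2.88 CPM in the libraries labelled Alox15-/- and at 3.14, 2.56, 1.31 and 6.72 CPM in those labelled WT. Replicate 4 labelled WT was above 2 of the libraries labelled Alox15-/-, and replicate 4 labelled Alox15-/- was below 2 of those labelled WT. On the log2 scale the change was 1.02, with a standard error of 0.438 and a 95% interval of 0.084 to 1.95. The unadjusted p of edgeR was 0.0346, and Cxcr6 did not pass after adjustment over all genes (edgeR adjusted p = 0.581). Without replicate 4 labelled WT the log2 fold change was 1.53 (edgeR adjusted p = 0.0862) and without replicate 3 labelled WT it was 0.69 (edgeR adjusted p = 0.692), in a range of adjusted p from 0.0572 to 0.794 over the 16 alternatives. Between 13 and 35 reads per library stand behind these levels. The γδ T cell gene Trdc was at 75.3, 70.6, 72.1 and 44.6 CPM in the libraries labelled Alox15-/-, also lowest in replicate 4, and its part in the Cxcr6 values was not tested. Fyco1, the gene around Cxcr6, was itself below the filter, at 0.757 to 3.86 CPM in the libraries labelled Alox15-/- and 0.801 to 2.31 CPM in those labelled WT.

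Ccr6, the receptor for CCL20, was lower on average in the libraries labelled Alox15-/-, where it was at 4.10, 1.36, 1.89 and 2.88 CPM, than in those labelled WT, where it was at 4.55, 2.56, 4.14 and 5.04 CPM. Each of the 4 libraries labelled Alox15-/- was below the median of those labelled WT, and replicate 2 labelled WT lay among them. Its log2 fold change was -0.65 with a 95% interval of -1.36 to 0.071, and it did not pass (edgeR unadjusted p = 0.0739, adjusted p = 0.695). It stayed below 0 in all 16 alternatives, between -0.91 and -0.48. Between 5 and 41 reads per library were counted.

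Cxcr5, the receptor for CXCL13 that guides follicular helper cells and B cells into follicles, was at 4.59, 3.26, 3.40 and 3.02 CPM in the libraries labelled Alox15-/- and at 2.67, 1.60, 2.52 and 6.09 CPM in those labelled WT. Replicate 4 labelled WT was above, and the other 3 labelled WT below, every library labelled Alox15-/-. Cxcr5 had a log2 fold change of 0.19 with a 95% interval of -0.59 to 0.97 (edgeR adjusted p = 0.937). It ran from -0.020 without replicate 2 labelled WT to 0.62 without replicate 4 labelled WT. The B cell markers summed to 212.5 to 310 CPM in the libraries labelled Alox15-/- against 208 to 304 CPM in those labelled WT, and their part in the Cxcr5 values was not tested.

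Ccr2, the receptor for CCL2 that is best known for the exit of monocytes from bone marrow and is also carried by effector T cells, was near the limit of detection. Its reads numbered 8, 4, 7 and 3 in the libraries labelled Alox15-/- and 5, 0, 1 and 0 in those labelled WT. The levels were 1.93, 1.09, 1.32 and 0.432 CPM against 0.784, 0, 0.101 and 0 CPM, where a count of 0 allows up to 0.480 and 0.630 CPM in the libraries concerned. Replicate 1 labelled WT was above replicate 4 labelled Alox15-/-. The difference of means was 0.972 CPM (exact permutation, two-sided, p = 0.0571, where 0.0286 is the lowest value possible). The sum of myeloid markers, 117 to 496 CPM against 50.2 to 62.3 CPM, moved in the same direction, with Csf1r at 0.432 to 5.16 CPM against 0.202 to 0.801 CPM, and its part in the Ccr2 reads was not tested.

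**Figure D2:**
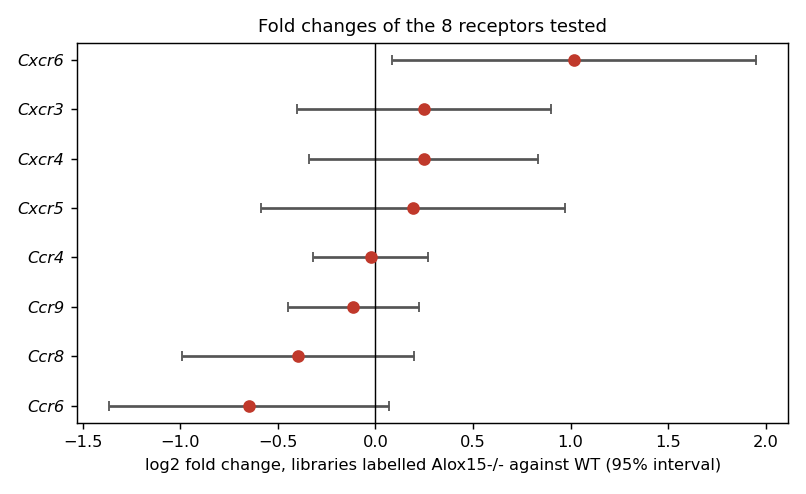
Log2 fold change of each of the 8 receptors tested, libraries labelled Alox15-/- against WT, as a point with its 95% interval from edgeR's quasi-likelihood fit, unadjusted. The interval of Cxcr6 (0.084 to 1.95) alone stays above 0, and those of Ccr4 and Ccr9 are the narrowest.

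On the CPM scale the order of mean levels in the libraries labelled WT was Ccr4 (21.3), Ccr9 (19.1), Ccr8 (13.3), Cxcr4 (9.29), Cxcr3 (5.18), Ccr6 (4.07), Cxcr6 (3.43), Cxcr5 (3.22) and Ccr2 (0.221). Neighbours in this order overlapped over the 4 libraries, except that Ccr2 lay below all others. In the libraries labelled Alox15-/- Ccr4 (21.0), Ccr9 (17.7) and Cxcr4 (11.3) led, and Cxcr6 (6.73) came next after Ccr8 (9.95). Reads near transcript ends, as this assay counts them, should not scale with transcript length, but the labels name a different kit from the methods, so levels were also divided by the summed length of all annotated exons. Per kilobase, Ccr8 came first with 11.3 ± 4.19 CPM per kb for WT labels and 8.47 ± 2.74 CPM per kb for Alox15-/- labels (SD, n = 4 each). Ccr4 followed with 6.90 ± 0.727 and 6.77 ± 0.520 CPM per kb, and Ccr9, whose annotated exons sum to 10260 bases, fell to 1.86 ± 0.260 and 1.73 ± 0.252 CPM per kb. Levels of Ccr8 and Ccr4 per kilobase overlapped within each group. Another receptor of the family, Ccr7, which keeps naïve T cells in lymph nodes, was at 1160 ± 102 CPM (SD, n = 4) and 1172 ± 91.9 CPM (SD, n = 4), above each of the 9 in every library.

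The spread between libraries was set beside the error of counting alone. For Ccr4, counted 79 to 233 times per library, the coefficient of variation between libraries was 10.5% in those labelled WT and 7.67% in those labelled Alox15-/-, where counting alone would give 8.55% and 10%. The spread of Ccr8 was 37.0% and 32.3%, against 11.2% and 14.6% from counting. Cxcr6 (67.6%) and Cxcr5 (61.2%) in the libraries labelled WT and Cxcr4 (49.7%) in those labelled Alox15-/- had a counting error of 22.8%, 23.1% and 14.1%, whereas Cxcr5 in the libraries labelled Alox15-/- varied by 19.6%, below its counting error of 24.6%. Counting error is a lower reference here, since libraries of separate mice also differ in other ways. In the libraries labelled WT, Ccr6, Cxcr3, Cxcr5 and Cxcr6 were each highest in replicate 4, and Ccr8 was second highest there. Among the libraries labelled Alox15-/-, replicate 1 was highest for Ccr2, Ccr6, Ccr8, Ccr9 and Cxcr5. Replicate 4 of that group was lowest for Ccr2, Cxcr3, Cxcr4, Cxcr5 and Cxcr6, and had the lowest sums of myeloid, erythroid, eosinophil and mast cell markers as well. The part of those cells in the receptor values was not tested.

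**Figure D3:**
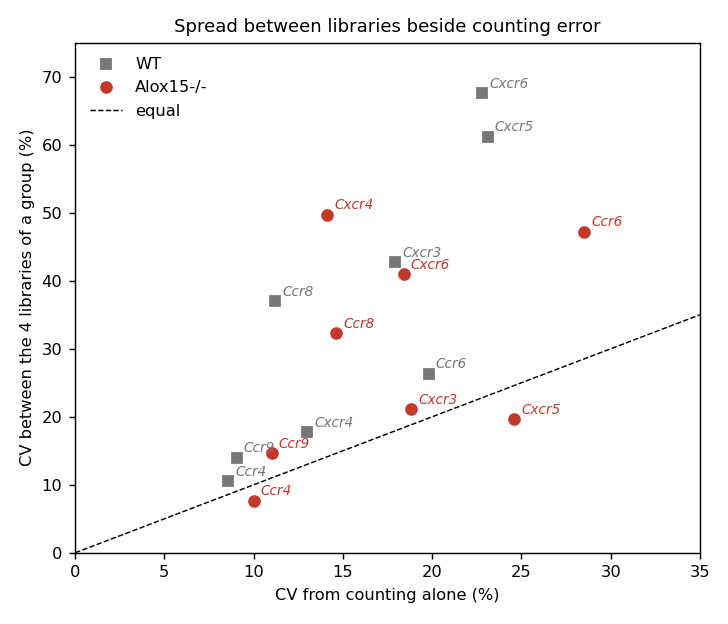
Coefficient of variation between the 4 libraries of a group (vertical axis, percent) against that expected from counting reads alone (horizontal axis, percent), for 8 receptors in libraries labelled WT (gray squares) and Alox15-/- (red circles), with a dashed line where both are equal. Ccr4 lies near the line in both groups, and Cxcr6 and Cxcr5 labelled WT lie farthest above it.

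The ligands of these receptors were measured in the same libraries. Of 16 genes listed for ligands of the 9 receptors, 10 were in the table and 7 were tested, of which 2 were called, both higher in the libraries labelled Alox15-/- (1.24% of all genes were called in either direction). Cxcl16, 1 of the 2, reached the filter through the libraries labelled Alox15-/-, where it was high, so the count over the tested ligands is no measure of the list. Ccl22, which encodes a ligand of CCR4, was at 119, 113, 96.3 and 35.2 CPM in the libraries labelled Alox15-/- and at 28.2, 34.4, 26.6 and 47.8 CPM in those labelled WT. Replicate 4 labelled Alox15-/- lay within the range of the libraries labelled WT. Ccl22 rose by 1.41 on the log2 scale, with a standard error of 0.291 (edgeR adjusted p = 0.0222). Cxcl16, the ligand of CXCR6, was at 4.59, 8.96, 8.51 and 2.59 CPM against 2.04, 1.12, 1.92 and 1.47 CPM, without overlap. Cxcl16 rose by 1.84 on that scale, with a standard error of 0.393 (edgeR adjusted p = 0.0278).

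Over all alternatives the log2 fold change stayed between 1.25 and 1.69 for Ccl22 and between 1.61 and 1.94 for Cxcl16, but neither call held with most single libraries left out. Ccl22 passed without replicate 4 of either group but not without any of the other 6 libraries, and it passed in 5 of 8 other settings (edgeR, DESeq2 or limma adjusted p from 1.75e-22 to 0.369 over all of these). Cxcl16 met the filter in 4 leave-out fits, those without a library labelled WT, and passed in 1 of them, without replicate 4, and in 7 of 8 other settings (edgeR, DESeq2 or limma adjusted p from 1.67e-05 to 0.138). Without replicate 2 labelled Alox15-/-, which had the most myeloid markers, Ccl22 was at a log2 fold change of 1.29 (edgeR adjusted p = 0.0942). Both genes are also made by dendritic cells and macrophages. The sum of myeloid markers was at 170, 496, 314 and 117 CPM in replicates 1 to 4 labelled Alox15-/- against 50.2 to 62.3 CPM in those labelled WT. Among the libraries labelled Alox15-/-, Ccl22 was highest in replicate 1 and the myeloid sum and Cxcl16 in replicate 2. Each of them was lowest in replicate 4. The sum of dendritic cell markers overlapped between the groups (324 to 592 against 357 to 524 CPM). In that list Irf8 was at 247 to 506 against 309 to 454 CPM, and Bst2 was at 73.1 to 94.2 against 44.6 to 66.6 CPM, without overlap, with an edgeR adjusted p of 0.0675 that fell under 0.05 in 4 alternatives. Their part in the ligand values was not tested.

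The other 5 ligands tested did not pass with all libraries and the filter. Before adjustment 5 of the 7 tested were under 0.05 by edgeR, beside 7.84% of all genes tested, under the limit of the filter given above for Cxcl16. Mif, also listed as a ligand, had a log2 fold change of 0.24 (edgeR adjusted p = 0.623). Cxcl10, a ligand of CXCR3, had a log2 fold change of 1.58 (edgeR adjusted p = 0.104) and passed without replicate 4 labelled Alox15-/- (1.84, edgeR adjusted p = 0.0379). Ccl20, the ligand of CCR6, had one of 1.64 (edgeR adjusted p = 0.220). Both reached the filter through replicates 1 to 3 labelled Alox15-/- and replicate 4 labelled WT (Cxcl10 at 3.38, 4.61, 4.35 and 2.10 CPM, Ccl20 at 3.62, 4.07, 3.21 and 2.52 CPM). On 3 to 23 reads per library, these folds have the same limit as that of Cxcl16. Ccl1, the ligand of CCR8, was at -0.16 and Ccl25, the ligand of CCR9, at -0.0069 on the same log2 scale. Ccl17, a further ligand of CCR4, did not reach the filter and was at 5.79, 7.87, 9.46 and 0.575 CPM against 0.470, 0.641, 0.101 and 0.839 CPM. Without the filter 6 ligands passed, Ccl17, Ccl20, Cxcl9 and Cxcl10 beside Ccl22 and Cxcl16. That setting, which estimates the spread between libraries with genes of few reads included, called 388 genes against 158. Its p-values fell far more than the folds moved. Ccl22 was at 1.38 (edgeR adjusted p = 1.75e-22) there and at 1.41 (edgeR adjusted p = 0.0222) with the filter. A pass in that setting alone is therefore no firm call.

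**Figure D4:**
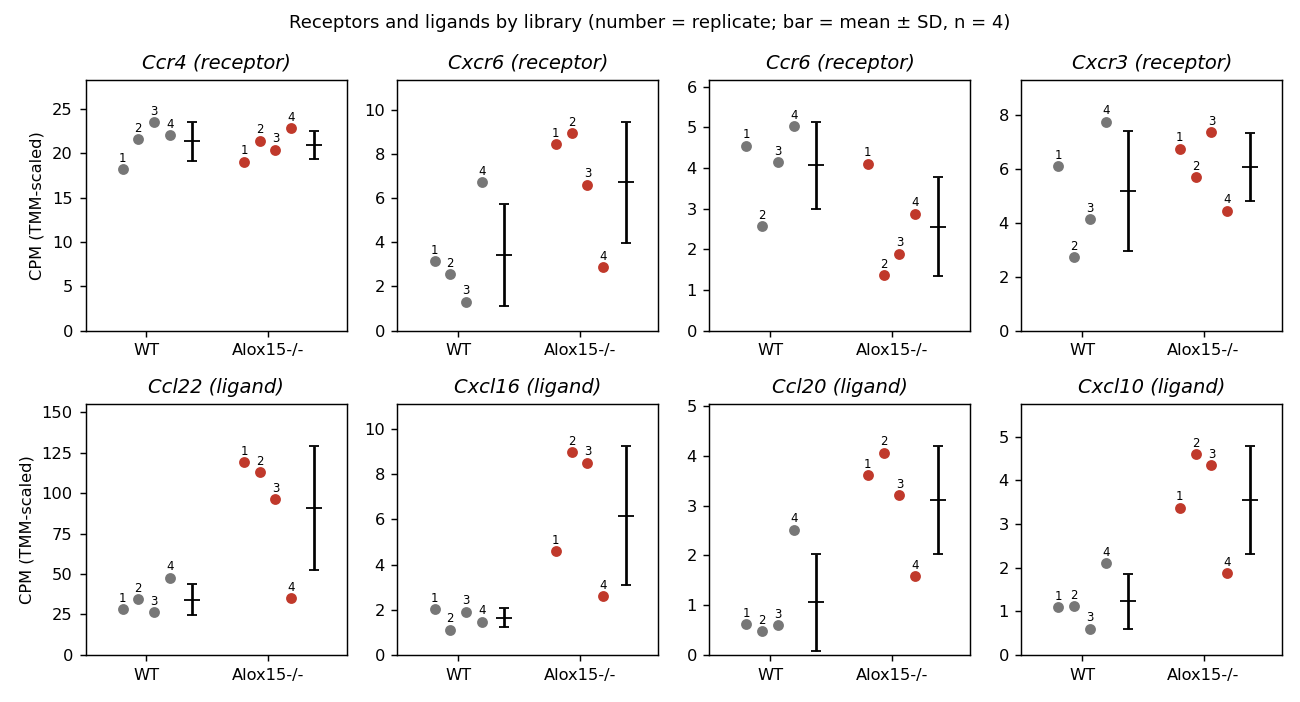
Levels in CPM of the receptors Ccr4, Cxcr6, Ccr6 and Cxcr3 (top) and of a ligand of each, Ccl22, Cxcl16, Ccl20 and Cxcl10 (bottom), in libraries labelled WT (gray) and Alox15-/- (red), numbered by replicate, with the mean ± SD of each group. Ccl22 and Cxcl16 were called higher in the libraries labelled Alox15-/-, and in all 4 ligand panels replicate 4 is the lowest library of that group.

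Other genes of the receptor pathway were listed by their role. Of 28 tested genes for G proteins and effectors, 0 were called by edgeR and 1 was under 0.05 before adjustment, beside 1.24% and 7.84% of all genes tested. That gene was Pik3r6, a regulatory subunit of phosphoinositide 3-kinase γ (log2 fold change 0.45, edgeR adjusted p = 0.270). Was, which drives actin branching, had the next smallest p of that list with a log2 fold change of -0.22. Of 16 tested genes that regulate or desensitize receptors, 0 were called by edgeR and 2 were under 0.05 before adjustment, beside 1.24% and 7.84% of all genes tested. These 2 were Rgs2 (0.67, edgeR adjusted p = 0.473) and Rgs1 (0.44, edgeR adjusted p = 0.616), both of which shorten G protein signals. Without the filter, under the limit given above for that setting, Rgs1 passed (0.42, edgeR adjusted p = 0.0274), as did Rgs18. Of the other chemokine receptors, 12 of 16 were in the table and only Ccr7 (log2 fold change -0.015) and Cx3cr1 (0.33) were tested, neither being called.

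Of 14 tested transcription factors with a known link to a receptor, 0 were called by edgeR, beside 1.24% of all genes tested. Before adjustment 3 were under 0.05, beside 7.84% of all genes tested. These were Gata3, which drives type 2 cells (log2 fold change -0.34, edgeR adjusted p = 0.518), Irf4, an activation factor (-0.38, edgeR adjusted p = 0.560), and Eomes, a T-box factor (0.66, edgeR adjusted p = 0.591). Gata3 passed without replicate 1 labelled Alox15-/- (-0.50, edgeR adjusted p = 0.0464). Irf4 (-0.41, edgeR adjusted p = 0.0240) and Foxp3 (-0.45, edgeR adjusted p = 0.0189) passed only without the filter, under the limit given above for that setting. With the filter Foxp3 was at -0.42 (edgeR adjusted p = 0.655). Its levels were 71.7, 95.5, 93.0 and 113.5 CPM in the libraries labelled Alox15-/- and 109, 102, 195 and 93.4 CPM in those labelled WT. Replicate 3 labelled WT lay far above the rest. Among 12 tested neighbours of the receptors on their chromosomes, 0 were called by edgeR and 0 were under 0.05 before adjustment, beside the same shares of all genes. The smallest p were those of Slc25a38 (log2 fold change 0.26) and Mcm6 (-0.20). The median log2 fold changes of these lists were -0.0085 for G proteins and effectors, -0.0018 for regulators, 0.089 for transcription factors and -0.093 for neighbours, beside -0.0075 over all genes.

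The genes whose levels followed Cxcr6 most closely over the 8 libraries were 2810428I15Rik (Pearson r = 0.971 of log2(CPM + 1)), Srgn (0.964), which encodes the granule proteoglycan serglycin, and 6030458C11Rik (0.956). The 8 libraries share their depth and their content of other cells across all genes, and 24 genes had r above 0.9. With all libraries and the filter none of the 3 was called (edgeR adjusted p of 0.749, 0.324 and 0.773). Srgn passed without replicate 4 labelled WT (0.77, edgeR adjusted p = 0.00944). It also passed without the filter (0.52, edgeR adjusted p = 0.000456), under the limit given above for that setting.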

How the data were processed

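The deposited values are unnormalized read counts for each gene symbol in each library, which the authors made from MACE-seq (a 3′-end RNA assay by the methods, whereas the labels name a small RNA kit) on reads that were cleaned and trimmed. The submitters' processing notes name Bowtie, edgeR and GRCm38, and the counting tool and strand setting are not given in the sources used here. Columns were assigned to libraries by title. A gene was kept where 4 or more libraries had 2 CPM or more (12700 of 28239), and counts were scaled by TMM and compared by group alone with the two-sided quasi-likelihood test of edgeR 4.0.16 in R 4.3.3, with Benjamini–Hochberg adjustment over all genes and a threshold of 0.05. CPM are counts divided by the TMM-scaled total over tested genes. A standard error is the log2 fold change divided by the square root of F, and its 95% interval uses the degrees of freedom of the test. Ccr2 and the summed marker levels were compared by exact permutation over the 8 libraries. The biological coefficient of variation was 14.5%. The p-values measure the spread between libraries, and intervals of counts cover counting error only.

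The receptors and gene lists were chosen with earlier results of these data known. All 9 receptors are named, and so are the called genes of each list, or the 2 with the smallest p where none was called, and the 3 genes most correlated with the receptor of smallest p. The further genes Cxcl10, Ccl20, Ccl1, Ccl25, Ccl17, Mif, Csf1r, Eomes, Fyco1 and the genes named for a single alternative or from a marker list were chosen after their values were seen. Same-numbered libraries of the groups did not deviate together (Pearson r of deviations from the group means 0.070, 0.160, -0.170 and -0.018), so no pairing was used. Alternatives were other scalings, other filters, DESeq2 1.42.0, limma-voom 3.58.1, a robust fit, a replicate block and each library left out. The steps were tested on simulated data. Figures were drawn with matplotlib 3.10.9.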

Additional observations from a re-analysis of the deposited data

Results flagged for a closer look

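With 4 libraries a group, the values of 9 receptors, 12 other chemokine receptors and 10 marker sums in each group (18, 24 and 20 sets) were searched for a library far from the other 3, and 5 were found, where chance alone flags about 1 in 20, a rate that does not hold for counts near 0. Ccr2 was at 0.784 CPM in replicate 1 labelled WT and at 0 to 0.101 CPM in the other 3, a difference of 5 reads against 0 to 1. Ccr3, the eotaxin receptor of eosinophils and basophils, was at 6.25 CPM (39 reads) in replicate 2 labelled WT and at 0 to 0.303 CPM in the other libraries of that group, while the eosinophil markers of that library summed to 4.16 CPM, within the range of its group. The CD8 markers summed to 21.5 CPM in replicate 2 labelled WT against 30.1 to 31.8 CPM in the other 3. Cxcr1 at 0.144 CPM in replicate 4 labelled Alox15-/- and Ackr1 at 0.189 CPM in replicate 3 labelled Alox15-/- each rest on a single read where the other 3 libraries had 0, which is always found by this measure.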

How the results depend on the processing

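The number of receptors called was 0 in all 16 alternative settings, and the direction of Ccr6, Ccr8, Ccr9, Cxcr3 and Cxcr6 was the same in all 16. The sign turned for Ccr4 with upper quartile scaling (0.0050), without Alox15-/- replicate 1 (0.018) and without WT replicate 3 (0.035), for Cxcr4 without Alox15-/- replicate 2 (-0.12) and for Cxcr5 without WT replicate 2 (-0.020). With each library left out in turn the log2 fold change ran from -0.094 to 0.035 for Ccr4, from -0.12 to 0.43 for Cxcr4, from -0.020 to 0.62 for Cxcr5 and from -0.066 to 0.031 for Ccr7. Ccr7 turned with upper quartile scaling (0.013) and without 4 of the single libraries (0.0023 to 0.031). The number of genes called over the whole table was 388 without the filter on low counts and between 86 and 172 with 1 library left out (95 without Alox15-/- replicate 1, 86 without replicate 2, 93 without replicate 3 and 105 without WT replicate 2). With the replicate number as a block, 0 receptors and 146 genes were called, and the numbers did not pair the libraries. Of the genes listed beside the 9 receptors, Ccr1, Ccr3 and the neighbour Ltf passed without the filter and in no other setting. Without the filter p-values fell far more than folds moved, so a pass in that setting alone is no firm call. The ligands called numbered 0 or 2 with 1 library left out, 6 without the filter, 0 with limma-voom and 1 with the robust fit or the replicate block. Averaged as log2(CPM + 1), NK and γδ T cell markers passed (0.79, exact permutation p = 0.0286), and B cell (-0.41) and dendritic cell (0.12) markers turned. By median CPM, 7 of 9 receptors kept their rank in the libraries labelled Alox15-/-. Without the filter, Ccr2 had a log2 fold change of 2.24 (edgeR adjusted p = 0.125). Between 0 and 41 reads per library for Ccr2, Ccr6, Cxcr3, Cxcr5 and Cxcr6 limit what can be seen in them.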
